A study of Mus musculus with 2 samples.

Results

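B-lineage genes were examined in the thymus of newborn mice, the organ in which T cells, not B cells, mature. The set holds 9 genes of 43346 measured: Ighm, Cd79a, Cd79b, Ms4a1, Pax5, Ebf1, Vpreb1, Vpreb3 and Igll1. They were taken by symbol and matched by gene identifier without version. They were chosen by their TPM in these libraries, where Ighm was high and the other B-cell genes low, so that contrast is given as a description with no test. Total RNA was sequenced from both thymus lobes of each of 2 pups of 1 pregnant female (strain B6NCrl, postnatal day 0), as 1 library per pup. Both libraries belong to 1 group, untreated as far as the labels say, and no allele or other tissue is named. The libraries held 39045711 and 41576378 expected counts on genes (replicates 1 and 2), where an expected count is an estimated number of reads that need not be whole. Levels are TPM, a relative abundance scaled by transcript length within a library, with mean ± SD over both libraries (n = 2). The pups are littermates, so the spread between the libraries is that within 1 litter, and its technical and biological parts cannot be told apart.

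B cells recognise antigen with immunoglobulin, a pair of heavy and light chains whose variable parts are joined from V, D and J gene segments. Ighm encodes the constant part of the mu heavy chain, the first heavy chain that a developing B cell makes, and Cd79a and Cd79b encode the chains that pass the receptor's signal into the cell. Before a light chain is available, the Vpreb and Igll1 proteins stand in for it as the surrogate light chain. Ebf1 and Pax5 are transcription factors that specify B-cell fate and hold it, and Ms4a1 encodes the surface protein CD20 of later B cells. In the thymus, B cells are known as a small resident population of the medulla. The heavy-chain locus can also be transcribed from an enhancer next to Ighm without a V segment (germline transcription), which has been described in early lymphocytes, T cells among them.

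The annotation holds 2 transcripts of Ighm, which part at their 3' ends. Ighm lies on chromosome 12, 113418558 to 113422730 on the minus strand (GRCm38, mm10), between Ighd and the J segments. Both transcripts share 1305 nt, and then Ighm-201 reads on into the end of the secreted antibody, whereas Ighm-202 splices to 2 exons that anchor the protein in the membrane. The end of the coding sequence is shown for each, because the split of Ighm between the transcripts rests on what follows this point. The last 30 shared bases are in lower case, and capitals mark the coding bases, stop codon included, that only that transcript has. Sequences are from the GENCODE M21 transcripts and run 5' to 3' on the minus strand, in chr12:113420867-113420958 for the secreted end and in chr12:113418826-113420958, with the introns removed, for the membrane end.
Ighm-201, secreted end: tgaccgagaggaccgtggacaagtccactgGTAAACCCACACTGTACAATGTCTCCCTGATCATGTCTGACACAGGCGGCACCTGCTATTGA
Ighm-202, membrane end: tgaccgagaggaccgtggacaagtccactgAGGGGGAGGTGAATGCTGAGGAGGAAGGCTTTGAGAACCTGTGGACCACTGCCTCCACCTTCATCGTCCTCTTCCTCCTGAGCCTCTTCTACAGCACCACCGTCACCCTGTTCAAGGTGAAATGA
The capitals cover 62 coding bases in the secreted form and 125 in the membrane form.

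Ighm did not follow the other B-lineage genes in level. Its level was 274 TPM in the first library and 292 in the second (283 ± 13.1), based on 11821 and 13636 counts. Counted from the highest, it was gene number 573 and 553. The 8 other members had medians of 1.38 and 1.29 TPM. The level of Ighm was therefore 199 times their median in replicate 1 and 227 times in replicate 2. Even the 8 others summed, at 42.2 and 44.3 TPM, stayed below Ighm. In a bulk tissue, fewer cells of a type and less RNA per cell cannot be told apart, which holds for every level given here.

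Of the 9 members, 5 were detected, meaning TPM of at least 1 in both libraries, beside 32.2% of all genes measured. The detected members were Ighm, Cd79b, Vpreb1, Ebf1 and Vpreb3. The median of all genes was 0.08 and 0.06 TPM, and that of detected genes 15.3 and 14.7 TPM. Apart from Ighm, the member above that last median was Cd79b alone.

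**Figure D1:**
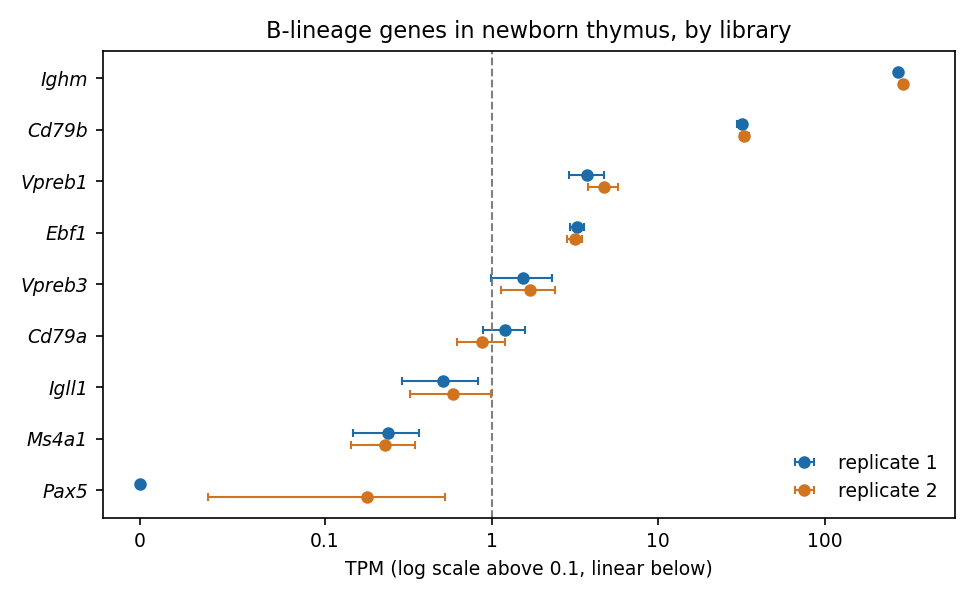
TPM of the 9 B-lineage genes in each library (points, coloured by replicate), on an axis that is logarithmic above 0.1 and linear below it. Bars are 95% exact Poisson intervals of the counts, which cover counting error only, and the dashed line marks 1 TPM. Ighm stands apart at 274 and 292 TPM, Cd79b follows at 31.7 and 32.9 TPM, and the point of Pax5 in replicate 1, with 0 counts, has no bar.

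The chains that signal for the receptor were unequal. Cd79b had 31.7 and 32.9 TPM (32.3 ± 0.82), from 1044 and 1173 counts. Cd79a, its partner in the receptor, had 1.2 and 0.88 TPM from 48 and 38 counts, so it reached 1 TPM in replicate 1 and missed it in replicate 2. The level of Cd79b was 26.4 and 37.4 times that of Cd79a. Ighm in turn was 8.63 and 8.89 times Cd79b, and 228 and 332 times Cd79a. In GRCm38 Cd79b lies on chromosome 11, 106311341 to 106314762 (minus strand), and Cd79a on chromosome 7, 24897381 to 24902197 (plus strand). Neither chain stood near the level of the heavy chain, and Cd79b was the nearer of them in both libraries.

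The surrogate light chain genes lay between 0.51 and 4.71 TPM. Vpreb1 had 3.72 and 4.71 TPM from 70.3 and 95.9 counts. Vpreb3 had 1.55 and 1.69 TPM from 24 and 30 counts, and Igll1 (lambda 5) had 0.51 and 0.59 TPM from 16 and 14 counts. Vpreb1 was higher than Vpreb3, and Vpreb3 higher than Igll1, in both libraries. Igll1 (16860671 to 16863985) and Vpreb1 (16868403 to 16870843) are neighbours on the minus strand of chromosome 16, with 4417 nt between them, and Vpreb3 is on chromosome 10, 75943057 to 75949657 (plus strand).

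The factors and the late marker were at the low end, apart from Ebf1. Ebf1, which acts early in B-cell specification and is also expressed outside the lineage (in stromal and fat cells, for example), had 3.26 and 3.16 TPM from 373 and 369 counts. Pax5, the factor that maintains B-cell identity, was at 0 counts in replicate 1 and had 3 counts, or 0.18 TPM, in replicate 2. An observed 0 allows up to 3 counts, or 0.0768 CPM (counts scaled to the library total) in replicate 1. The 0 of that library therefore does not show that Pax5 is absent. Ms4a1 had 0.24 and 0.23 TPM from 21 and 22 counts. Both Ms4a1 and Pax5 lay below 1 TPM in each library. Ebf1 is on chromosome 11, 44617317 to 45008091 (plus strand), Pax5 on chromosome 4, 44524757 to 44710487, and Ms4a1 on chromosome 19, 11249675 to 11266241 (both minus strand).

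In order of mean TPM the genes were Ighm, Cd79b, Vpreb1, Ebf1, Vpreb3, Cd79a, Igll1, Ms4a1 and Pax5. For all 8 pairs of neighbours in this order, the values of the libraries did not overlap. Counting error is wider than that spread for the rarer genes. The 95% Poisson intervals of the counts were apart in both libraries for 3 pairs, Ighm and Cd79b, Cd79b and Vpreb1, and Ebf1 and Vpreb3. They overlapped in at least 1 library for Vpreb1 and Ebf1, Vpreb3 and Cd79a, Cd79a and Igll1, Igll1 and Ms4a1, and Ms4a1 and Pax5. The order within those 5 pairs is not fixed by these counts.

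The authors' tables also give a posterior mean TPM and its interval, and for the rarest genes these differ from the TPM. In the authors' deposited table Pax5 had posterior means of 1.21 and 1.24 TPM, with intervals of 0.567 to 1.97 and 0.621 to 1.95, beside 0 and 3 counts. Every gene with 0 counts and a measurable length had a lower bound above 0 in that table, 16605 genes in replicate 1 and 16942 in replicate 2. The lower bound thus lay above 0 with or without reads, and Pax5 was counted as not detected. Pax5 has 20 annotated transcripts, more than any other member.

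Both libraries divided Ighm between its transcripts in nearly the same way. Ighm-201, with the secreted end, took 65.6% and 64.8% of Ighm TPM (65.2% ± 0.587), which is 180 and 189 TPM. Ighm-202, with the membrane end, took 34.4% and 35.2%, which is 94.1 and 103 TPM. The deposited intervals of the 2 transcripts did not overlap, at 169.5 to 183 against 87.3 to 97.7 TPM in replicate 1 and 179 to 192 against 96.1 to 107 TPM in replicate 2. By expected counts, which are not divided by length, the secreted form took 62.4% and 61.6%. The division is the authors' estimate from the 188 nt that only Ighm-201 has and the 393 nt that only Ighm-202 has. The 188 nt lie inside an intron that Ighm-202 removes. In total RNA, reads of unspliced Ighm RNA there cannot be told apart from Ighm-201 reads. Their part in the share of the secreted end was not tested.

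**Figure D2:**
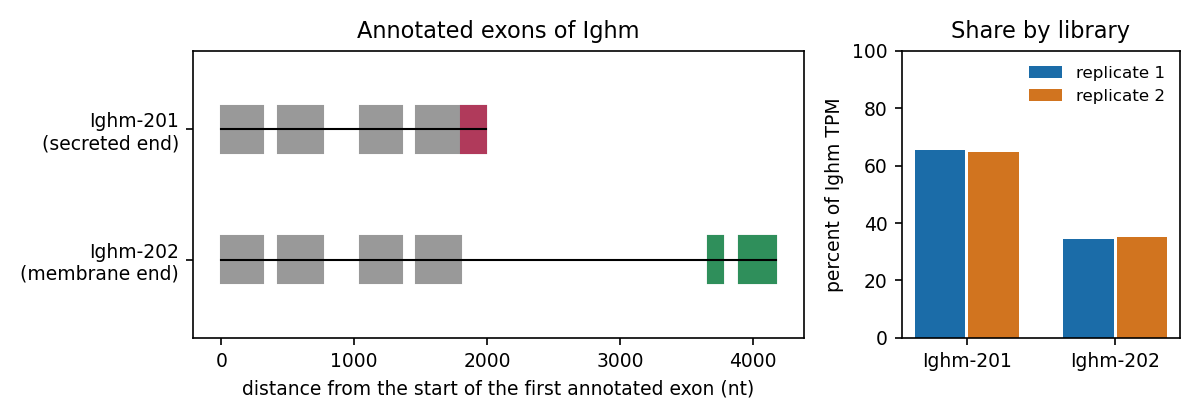
Left, the annotated exons of both Ighm transcripts against the distance in nt from the start of the first exon, with shared parts in grey, the part of Ighm-201 alone in red and the exons of Ighm-202 alone in green. Right, the percent of Ighm TPM assigned to each transcript, with 1 bar per library: Ighm-201 took 65.6% and 64.8%, and Ighm-202 34.4% and 35.2%.

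By TPM, the other members rested mostly on 1 transcript each, Ebf1 and Igll1 least so. Cd79b-202 took 91.6% and 89.4% of Cd79b. The highest of 7 transcripts of Ebf1 took 61.9% and 60.3%, and the next took 28.3% and 23.7%. By expected counts these 2 were closer, at 53.1% and 54.7% against 42.9% and 38.0%. Cd79a has 1 annotated transcript, and all TPM of Ms4a1 was assigned to 1 of its 3. For Vpreb1 a transcript of 730 nt that has no name in GENCODE M21 took 86.3% and 86.5%, and the next took 10.9% and 10.5%. The share of the highest transcript differed between the libraries for Vpreb3 (100% and 68.8%) and for Igll1 (77.4% and 55.8%), on at most 30 counts per library. The 3 counts of Pax5 in replicate 2 were all assigned to 1 transcript of 631 nt.

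The heavy-chain locus was read mainly at Ighm. Of the counts on its 8 constant genes, Ighm held 99.3% and 99.5%. Ighd, the delta constant gene that lies 2233 nt downstream and is spliced from the same primary transcript in mature B cells, had 0.77 and 0.48 TPM from 39 and 26 counts. The level of Ighm was 355 and 609 times that of Ighd. Of the constant genes used after class switching, Igha had 0.71 and 0.67 TPM and Ighg2c 0.24 and 0.11 TPM. Ighg2b had 0.14 TPM and Ighg1 0.06 TPM in both libraries, while Ighg3 had 2 counts and 0, and Ighe 3 counts and 0. None of these reached 1 TPM in either library. The gamma constant genes are similar in sequence, so the split of reads among them is uncertain.

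Light chains, without which no complete antibody forms, also stood far below Ighm. The kappa constant gene Igkc was detected, at 8.17 and 9.82 TPM (8.995 ± 1.17) from 54 and 70 counts. Ighm was 33.5 and 29.8 times as high. The lambda constant gene Iglc2 had 0.2 and 0.43 TPM from 3 and 7 counts. The constant genes Iglc1, Iglc3 and Iglc4 were not analysed here.

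V segments of the heavy chain were rare beside Ighm. The 184 heavy-chain V genes and V pseudogenes measured held 48.0 and 41 counts together, 38 of them had a count in either library, and none was detected. Summed, they stood at 6.76 and 5.58 TPM. The immunoglobulin segments of highest mean level were Ighv1-77 (1.2 and 0.48 TPM), Ighv1-23 (0.81 and 0.5 TPM), Igkv6-20 (0.55 and 0.5 TPM), Ighv14-2 (0.54 and 0.37 TPM) and Ighv1-47 (0.17 and 0.64 TPM). Each of these rested on at most 6.89 counts in a library, and V genes are a family of similar sequences whose reads are hard to tell apart. The 31 D and J segments measured are at most 54 nt long and had an effective length of 0 in the deposited tables, so their listed 0 is no measurement.

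Set against their constant gene, V segments were rarer in the heavy-chain locus than in the 4 other receptor loci compared. In the heavy-chain locus there were 0.406 V counts per 100 Ighm counts in replicate 1 (95% exact binomial interval 0.299 to 0.539) and 0.301 (0.216 to 0.408) in replicate 2. In the kappa locus, from far fewer reads, there were 22.2 V counts per 100 Igkc counts (10.8 to 42.1) and 28.6 (16.5 to 47.5). These ratios are a description, since the level of Ighm, by which the genes were chosen, is part of the first.

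The T-cell receptor loci of the same libraries gave values within or above the kappa intervals. They were 21.7 and 21.5 per 100 for the beta chain, 40.2 and 39.6 for gamma and 99.8 and 88.9 for alpha. Per length, as TPM of all V segments per 100 TPM of the constant genes, the heavy chain stood at 2.47 and 1.91, kappa at 20.4 and 25.6, beta at 45.2 and 44.9, gamma at 62.3 and 61.8, and alpha at 112 and 100.4. The heavy chain was the lowest of the 5 on either scale. The number of V genes summed differed between the loci, at 184 for the heavy chain, 107 for kappa, 103 for alpha, 34 for beta and 7 for gamma. The part of these numbers in the difference, and the kind of transcript the Ighm reads came from, was not tested.

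**Figure D3:**
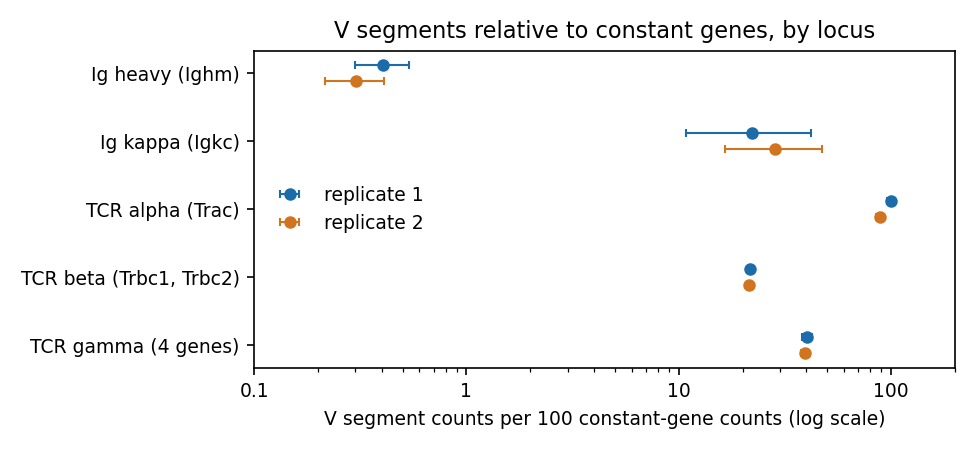
Counts on V segments per 100 counts on the constant genes (log axis) for 2 immunoglobulin loci and 3 T-cell receptor loci, with 1 point per library. Bars are 95% exact binomial intervals of the counts. The heavy-chain locus sits at 0.406 and 0.301, and the other loci lie between 21.5 and 99.8.

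Other B-cell genes repeated the low level of the members more often than that of Ighm. Of 20 further genes, 10 were detected, with list medians of 1.06 TPM in each library, beside the 32.2% of all genes. None reached the level of Ighm. The inhibitory receptor Cd22 had 0.32 and 0.79 TPM, the complement receptor Cr2 0.68 and 0.47, the low-affinity IgE receptor Fcer2a 0.25 and 0.22, and the BAFF receptor Tnfrsf13c 0.19 and 0.22 TPM. Fcmr, a receptor for IgM, had 0.19 and 0.08 TPM from 2 counts and 1. Siglecg had 0.4 TPM in both libraries, Vpreb2 0.69 and 0.68, Cxcr5 0.97 and 0.82, and Cd180 0.88 and 1.01 TPM. These genes were each below 1 TPM in at least 1 library.

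A second group of that list was near or clearly above 1 TPM. Fcrla had 1.18 and 1.28 TPM, Bank1 1.16 and 1.10, the coactivator Pou2af1 1.15 and 1.48, the MHC class II subunit H2-Ob 1.34 and 1.88, and Cd72 5.43 and 5.3 TPM. The 5 genes above 10 TPM were Ralgps2 (106 and 88.6), Tnfrsf13b (45.6 and 42.5), the costimulatory receptor Cd40 (24.1 and 25.6), the kinase Blk (15.4 and 15.0) and the factor Spib (12.3 and 13.9 TPM). Of these, Cd40 is also expressed by thymic epithelium and antigen-presenting cells, and Spib by plasmacytoid dendritic cells and medullary epithelium. Which cells gave the levels of the 5 genes, Ralgps2 and Tnfrsf13b among them, was not tested.

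Lists of other cells that could carry immunoglobulin or B-lineage genes were mixed. Of 8 plasma cell genes, 4 were detected, beside 32.2% of all genes, with medians of 0.95 and 1.02 TPM. The high ones were Xbp1 (160 and 176 TPM), Mzb1 (143 and 138 TPM) and Sdc1 (13.2 and 13.4 TPM), which other cell types also express. The factor Prdm1 had 0.54 and 0.43 TPM, the IgM joining chain Jchain 0.34 and 0.36, the plasma cell receptor Tnfrsf17 0.28 and 0.31, and Derl3 0.38 and 0.74 TPM. Irf4, a factor that activated lymphocytes also use, had 1.36 and 1.29 TPM. The part of plasma cells in the level of Ighm was not tested.

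Of 9 plasmacytoid dendritic cell genes, 7 were detected, beside 32.2% of all genes, with medians of 15.1 and 15.4 TPM. Ly6d (280.0 and 326 TPM), Bst2 (134 and 135 TPM) and Irf8 (59.7 and 60.7 TPM), all with wider expression in lymphocytes or stroma, led the list. Tcf4 had 31.5 and 28.9 TPM, Pacsin1 15.1 and 15.4, Cox6a2 3.4 and 2.59, and Klk1 1.99 and 3.41 TPM. The genes not detected were the surface receptor gene Siglech, at 0.96 and 0.95 TPM, and the factor Runx2, at 0.88 and 0.91 TPM. Ly6d was the one gene of that list above Ighm in both libraries.

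**Figure D4:**
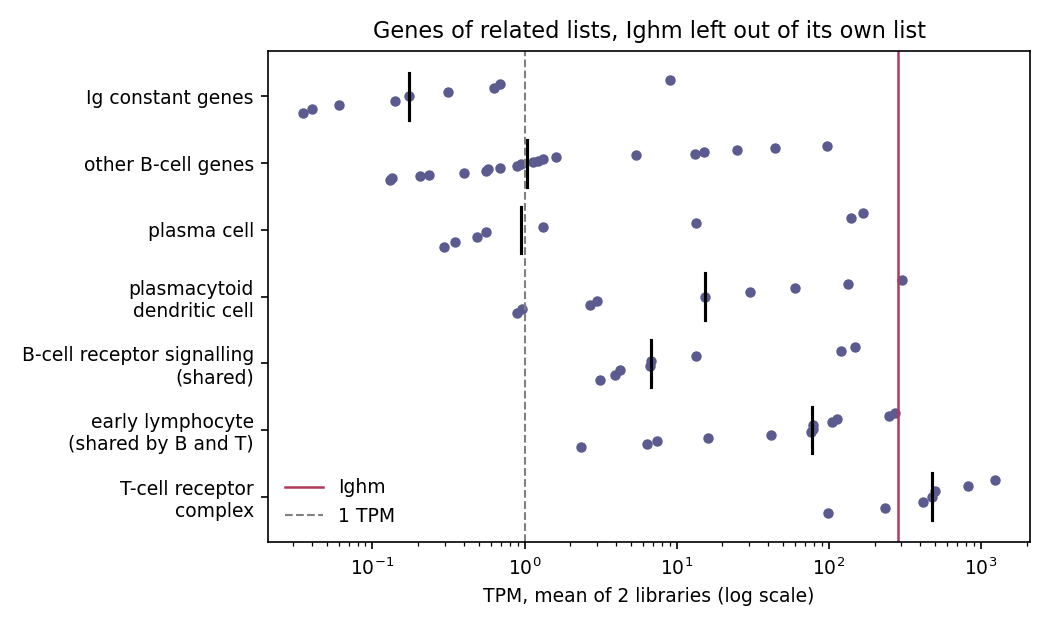
Mean TPM of the genes of 7 related lists (points, log axis), with the list median as a black bar. The red line is the level of Ighm (283 TPM), which is left out of its own list, and the dashed line marks 1 TPM. The immunoglobulin constant, other B-cell and plasma cell lists centre near or below 1 TPM, and the T-cell receptor list lies mostly above Ighm.

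Every gene was detected in the 3 lists that developing T cells or other blood cells share. Of 12 early lymphocyte genes that B and T cells share, all 12 were detected, beside 32.2% of all genes, with medians of 78.2 and 70.1 TPM. They were led by the recombinase gene Rag1 (263 and 279 TPM), the factor Lef1 (238 and 258 TPM) and the terminal transferase Dntt (108 and 118 TPM). The 8 receptor signalling genes that other blood cells share were also all detected, at 7.1 and 6.37 TPM in the median, led by Cd24a (138 and 160 TPM), Cd37 (120.0 and 119.8 TPM) and Lyn (13.4 TPM in both). The 7 genes of the T-cell receptor complex list, which check the label thymus, were all detected too, with medians of 478 and 459 TPM. By mean TPM the highest were Lck (1261 and 1219 TPM), Cd3g (795 and 839 TPM) and Trac (478 and 523 TPM). Against the alpha-chain constant gene Trac, Ighm reached 57.3% and 55.9% per length. By counts, Ighm held 11821 and 13636 and Trac 4424 and 5225. The beta-chain constant genes Trbc1 and Trbc2 together held 144795 and 158345 counts. The comparison with T-cell receptor genes therefore depends on the scale and on the gene.

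By distance of log2(TPM + 1) over the 2 libraries, the 5 nearest of 22048 coding and receptor genes were Ostc (276 and 290.2 TPM), Phgdh (270.1 and 292 TPM), Psma4 (275 and 286 TPM), Snrpd1 (278 and 298 TPM) and Eef1g (282 and 295 TPM). Ostc encodes a subunit of the complex that attaches sugars to new proteins, Phgdh an enzyme of serine synthesis, Psma4 a proteasome subunit, Snrpd1 a splicing protein and Eef1g a translation factor. With 2 libraries this measure finds genes of like level and says no more.

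By counts relative to the bulk of genes, none of the members with enough reads differed over 2-fold between the pups. With a mean of at least 50 expected counts, 1.36% of 14155 genes differed over 2-fold between the libraries (0.198% higher in replicate 2 and 1.16% higher in replicate 1), by counts scaled with edgeR's TMM method. Of the members, 4 had that many counts (Ighm, Cd79b, Vpreb1 and Ebf1), and 0 of them differed over 2-fold. With only 4 members, this cannot be told apart from the 1.36% of all genes tested. The log2 ratio of replicate 2 over replicate 1 was 0.14 for Ighm (95% exact binomial interval 0.11 to 0.18), 0.10 for Cd79b (-0.02 to 0.23), 0.39 for Vpreb1 (-0.07 to 0.86) and -0.08 for Ebf1 (-0.29 to 0.13). It was 0.25 for Vpreb3, -0.40 for Cd79a, -0.25 for Igll1 and 0.00 for Ms4a1, and for each of these 4 the interval held 0. Pax5, with 0 and 3 counts, was given no ratio.

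The interval of Ighm left out 0, but it covers counting error only. Its size, 0.14 on the log2 scale or 1.10-fold, was close to the median absolute log2 ratio of 0.13 over the genes tested. The ratios of Ighm and Cd79b, at 0.14 and 0.10, were both near that median, and the interval of Cd79b held 0. No shared change can be read from them. With 1 library per pup these ratios have no replicate check. Spike-in scaling, from 659 and 427 spike-in counts, moved the median of the genes tested from 0.02 to 0.71 on the log2 scale and turned Ebf1, Cd79a and Igll1 to higher in replicate 2. With it Ighm moved to a log2 ratio of 0.83 and Cd79b to 0.79, and Vpreb1 passed 2-fold, at 1.08. The split of genes over 2-fold turned from 164 higher in replicate 1 and 28 in replicate 2 to 30 and 975. Igll1 was also higher in replicate 2 by TPM, at 0.51 and 0.59. The ratios above are therefore relative to the bulk of genes.

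**Figure D5:**
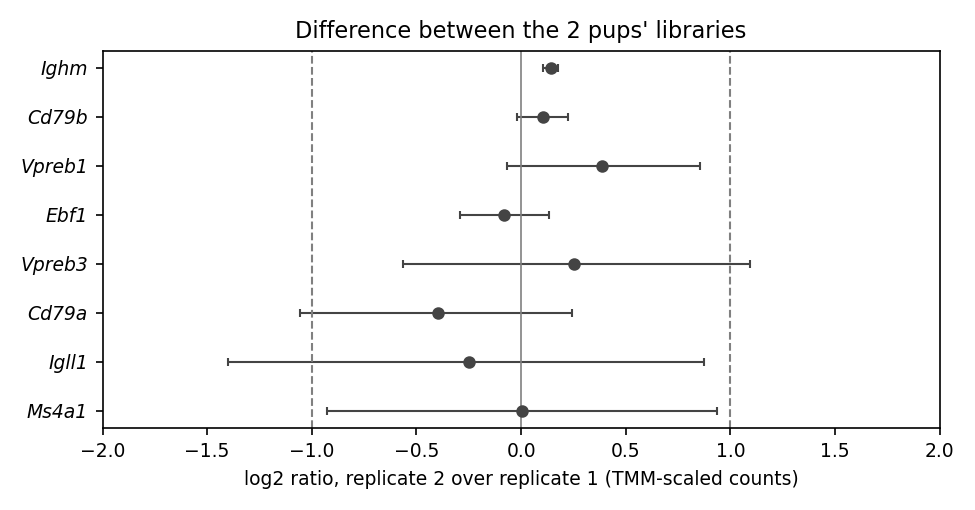
Log2 ratio of replicate 2 over replicate 1 for 8 B-lineage genes, from TMM-scaled counts, with 95% exact binomial intervals for counting error. Dashed lines mark 2-fold, and Pax5 is left out. All 8 points lie within 2-fold, between -0.40 and 0.39. With spike-in scaling (not drawn) Vpreb1 passes 2-fold, Ebf1, Cd79a and Igll1 turn positive, and Ighm moves to 0.83.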

How the data were processed

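Total RNA of the thymus of 2 newborn littermates was measured, and per the labels' protocols RNA above a stated size was kept and 10 ng entered each library. Expected counts, TPM, FPKM and the percent of a gene's TPM per transcript were deposited by the authors, with posterior means and interval bounds, which are treated as a signal on the TPM scale in the deposited tables. Per the deposited read-me texts the build is mm10 and the annotation M4. How reads were aligned and quantified, and whether strand was used, is not given in the sources used here, so reads of a gene and an antisense gene could not be told apart. Effective lengths were 99 nt below transcript lengths.

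The gene tables hold 69691 rows, of which 43346 are genes, and 96 spike-in and 26249 other rows were left out (the latter with 0.000105% and 0.0000404% of counts). Names came from GENCODE M21 by identifier (42462 matched), which held 432 immunoglobulin genes, 338 of them in the tables. Both Ighm transcripts had the same length in the tables and in M21. Expected counts were rounded for edgeR 4.0.16 (TMM, prior count 0.5, R 4.3.3) and DESeq2 1.42.0. Intervals are 95% exact ones and, like the floor of 3 counts, cover counting error only. Intervals and figures were made in Python 3.11.15 with scipy 1.17.1, matplotlib 3.10.9, numpy 2.4.6 and pandas 2.3.3. The ratio step was tested on simulated data. There is 1 group, so groups were not tested.

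The members and lists were chosen with earlier results of these data known. The text names all members, the immunoglobulin constant genes, the 5 highest V, D or J genes, all genes of the other B-cell list except 1 that is not reported here, the 3 highest and those below 1 TPM of the other lists, and the 5 genes nearest to Ighm in level. The posterior means and the count over all heavy-chain constant genes were added as alternatives after seeing the data.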

Additional observations from a re-analysis of the deposited data

How the results depend on the processing

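The number of members detected was 5, beside 32.2% of all genes. The posterior means gave 6, beside 38.9% of all genes, with Pax5 as the member gained. With 10 or more expected counts as the rule it was 8. The other detection rules gave 4 to 7, and leaving out each library in turn gave 5 and 6. For these remaining rules the share of all genes was not counted. Their numbers therefore describe the rule and are no result about the members. Detection at 2 TPM left 6 of the 20 other B-cell genes, against 10 at 1 TPM. The share of all genes at 2 TPM was not counted, so this fall cannot be compared with theirs. Leaving out each library gave 10 and 11 of the 20. The mean ratio of Ighm to the median of the 8 others was 213, and 199 and 227 with either library alone. It was 365 by counts scaled to the library total with no length, 191 by posterior means and 76.4 against the detected others alone. Heavy-chain V counts per 100 Ighm counts were 0.353 in the mean and 0.301 and 0.406 with either library alone, and the value was 2.19 by summed TPM. The secreted share of Ighm was 65.2%, 64.8% and 65.6% with either library alone, and 62.0% by expected counts. The number of genes over 2-fold between the libraries was 192, and 1005 with spike-in scaling, 847 at a minimum of 10 counts and 5512 with no filter. For ratios between the libraries no library could be left out, because such a ratio needs both. No paired analysis was possible because there is 1 group. Depth limits Pax5, Igll1, Ms4a1, Vpreb3 and Cd79a, which rest on 48 counts or fewer per library.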
